A study of Mus musculus with 15 samples.

Results

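The collagen genes of the mouse distal jejunum, the lower end of the middle small intestine, were measured by RNA-seq. The members were the protein-coding genes whose symbol reads Col, a number, the letter a and a number. There were 42 of them among the 26844 genes of the table. All libraries came from frozen tissue of male C57BL/6 mice aged 13 to 15 weeks that ate a diet with 0.08% cholesterol. Wild-type mice on that diet (WT control, n = 4) were set beside Aster-B/C global KO mice on it (KO control, n = 3). The same 2 genotypes were also fed the diet with 0.01% ezetimibe added (WT ezetimibe, n = 4, and KO ezetimibe, n = 4). Aster-B and Aster-C, encoded by Gramd1b and Gramd1c, move cholesterol between membranes, and ezetimibe blocks the intestinal cholesterol importer NPC1L1. The KO lacks both proteins in all tissues, and the labels do not name the deleted exons.

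Collagens are secreted proteins whose chains wind around each other into a stiff helix. Types I, III and V form the fibrils that carry tension in the lamina propria and the muscle wall, type IV forms the sheet of the basement membrane under the epithelium and around vessels, and type VI forms fine beaded filaments between cells and fibrils. Fibroblasts, smooth muscle cells, pericytes and endothelial cells make most of them, which is why collagen transcripts are used as a sign of stroma in gut tissue.

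Recovered reads summed to between 13855034 and 19307079 per library. Values are normalised counts, the reads of a gene divided by the library's size factor, so that 1 unit is about 1 read. Gramd1c lay between 1059 and 1845 in WT control and between 115 and 194 in KO control, and between 1102 and 1394 in WT ezetimibe and between 71.8 and 155.5 in KO ezetimibe. Gramd1b lay between 2274 and 4046 in WT control and between 962 and 1247 in KO control, and between 2859 and 3697 in WT ezetimibe and between 1744 and 2086 in KO ezetimibe. Both targeted genes were lower in every KO library than in every WT library of the same diet, and much of the Gramd1b RNA remained in KO. Epithelial markers were very high, with means over the 15 libraries of 40558 for Epcam, an epithelial adhesion protein, and 72097 for Vil1, a microvillus protein. Single stromal markers such as the fibroblast receptor Pdgfra (14.6), the smooth muscle myosin Myh11 (15.8) and the endothelial protein Pecam1 (29.1) were far lower. Summed per library, the smooth muscle list lay between 3699 and 6044, led by Mylk, which other gut cells also express. The fibroblast list summed to between 134 and 414, the endothelial list to between 33.9 and 123 and the epithelial list to between 273640 and 436673. Within the fibroblast list, means ran from 0.669 for Foxl1 to 121 for Adamdec1, and 4 of its 12 genes reached 10 in 3 or more libraries, as did 7 of 10 smooth muscle, 2 of 6 pericyte, 2 of 6 endothelial and 2 of 5 lymphatic endothelial genes. The labels say distal jejunum and not whether the whole wall or only its inner layers were taken, so the collagen values cannot be read as those of the whole wall.

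Of the 42 collagen genes, 22 reached a normalised count of 10 in at least 1 library and 20 did not and are given as not expressed. All 42 together took between 276 and 758 reads per library. By class, 7 of 11 fibril-forming genes, 3 of 6 type IV genes, 4 of 6 type VI genes, 3 of 7 fibril-associated genes, the type VII gene, both multiplexins and 2 of 4 transmembrane collagens were expressed. None of the 3 short-chain network genes (Col8a1, Col8a2 and Col10a1) or of the 2 others (Col26a1 and Col28a1) was. Just outside the line lay Col16a1, with a highest value of 8.15, and Col12a1, with 7.58. Just inside lay Col4a3, with 10.3 in WT control replicate 3, and Col27a1, with 10.6 in WT ezetimibe replicate 1. The cartilage collagens Col2a1 and Col11a1 never exceeded 1.07.

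Differences were tested with limma on log2(value + 1) over the 14299 genes that reached 10 in 3 or more libraries. That filter passed 17 collagens and left out 5 expressed ones, Col4a3, Col5a1, Col5a2, Col23a1 and Col27a1. Col5a1 and Col5a2, which encode the type V chains that set fibril diameter, had group means between 2.83 and 7.28 and between 2.75 and 8.85. Because a gene passes through the group where it is high, counts over the 17 describe those genes and not the family.

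By mean over the libraries Col20a1 and Col7a1 were the highest collagens, and neither is in the stromal core chosen below. Which cells made their RNA was not tested. Col3a1 of that core was above Col7a1 in WT control replicates 2 and 4, KO control replicate 3 and KO ezetimibe replicate 2. Col20a1, which encodes a little-studied fibril-associated collagen (ENSMUSG00000016356, GRCm38 chromosome 2, 180986535 to 181018363, plus strand), had a mean of 129 over the 15 libraries, or 25.2 per kb of exon. Col7a1 (ENSMUSG00000025650, chromosome 9, 108953586 to 108984875, plus strand), the anchoring fibril collagen that ties the basement membrane to the tissue beneath it, had 50.8, or 4.94 per kb. Per kb of exon, Col6a1 followed at 4.53, Col3a1 at 3.50, Col18a1 at 3.15, Col4a1 at 3.12, Col15a1 at 3.00 and Col11a2 at 2.81. Col1a1, in many connective tissues the most abundant collagen transcript, stood at 1.66 per kb and its partner Col1a2 at 1.19 per kb. From Col7a1 to Col11a2 in this order, the ranges over libraries overlap. Col20a1 shares exon sequence with another transcript, described below, so its level may include reads of that transcript, which was not tested.

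The 8 collagens chosen as the stromal core (Col1a1, Col1a2, Col3a1, Col4a1, Col4a2, Col6a1, Col6a2 and Col6a3) made up between 13.7% and 47.6% of the collagen counts of a library. Their summed normalised count was 58.2, 284, 53.6 and 291 in WT control replicates 1 to 4, and 170, 144 and 212 in KO control replicates 1 to 3. In WT ezetimibe it was 114, 83.6, 65.1 and 83.6, and in KO ezetimibe 62.1, 299, 87.6 and 113. WT control replicates 2 and 4 and KO ezetimibe replicate 2 were the 3 highest, the other 2 WT control libraries were the 2 lowest, and the KO control libraries lay between. KO ezetimibe replicate 2 was among the 4 highest libraries for all 8 genes, and WT control replicates 2 and 4 were each among them for 7 of the 8. By contrast the sum of Col7a1, Col11a2 and Col20a1, between 141 and 313, made up 23.0% to 66.3% of the collagen counts and was lowest in WT control replicate 4 and highest in KO ezetimibe replicate 3.

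**Figure D1:**
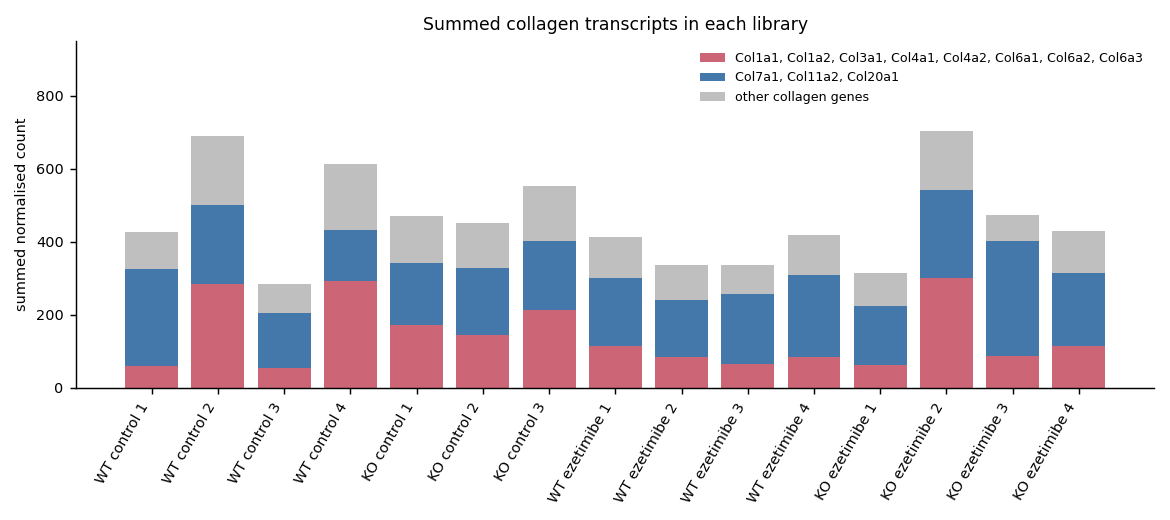
Summed normalised count of the collagen genes in each of the 15 libraries, split into the 8 stromal core genes (red), Col7a1, Col11a2 and Col20a1 (blue) and all other collagens (grey). The red part is tallest in WT control replicates 2 and 4 and KO ezetimibe replicate 2 (284, 291 and 299) and does not follow the 4 groups.

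Fibril collagens showed this pattern gene by gene. Col1a1, the main chain of type I collagen (ENSMUSG00000001506, chromosome 11, 94936224 to 94953042, plus strand), had 2.86, 22.7, 6.18 and 19.4 in WT control and 13.0, 14.5 and 8.66 in KO control. It had 9.50, 4.70, 9.43 and 8.36 in WT ezetimibe and 2.14, 25.7, 11.7 and 4.26 in KO ezetimibe. The range within WT control and within KO ezetimibe held all values of the other 2 groups. Col1a2, the second chain of type I, had group means of 21.7 ± 18.4 (SD, n = 4) in WT control, 17.1 ± 6.15 (SD, n = 3) in KO control, 7.71 ± 4.44 (SD, n = 4) in WT ezetimibe and 13.3 ± 5.76 (SD, n = 4) in KO ezetimibe. Its highest library was WT control replicate 4, at 45.9. Col3a1, the type III collagen of extensible tissues (ENSMUSG00000026043, chromosome 1, 45311538 to 45349706, plus strand), had 14.3, 69.0, 16.5 and 69.3 in WT control and 45.4, 29.9 and 70.4 in KO control. On ezetimibe it had 24.3, 22.5, 12.3 and 16.7 in WT and 7.50, 66.5, 12.8 and 37.3 in KO. WT control alone ran from 14.3 to 69.3, where all 15 libraries ran from 7.50 to 70.4.

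The basement membrane chains Col4a1 and Col4a2 are partners in one trimer. Col4a1 (ENSMUSG00000031502, chromosome 8, 11198423 to 11312826, minus strand) had 9.55, 43.6, 7.21 and 41.8 in WT control and 23.5, 33.5 and 27.1 in KO control. It had 26.4, 12.2, 11.3 and 15.8 in WT ezetimibe and 12.9, 44.0, 30.4 and 10.7 in KO ezetimibe. Col4a2 (ENSMUSG00000031503, chromosome 8, 11312805 to 11449287, plus strand) had group means of 15.0 ± 11.0 (SD, n = 4), 14.7 ± 7.76 (SD, n = 3), 10.0 ± 4.30 (SD, n = 4) and 15.4 ± 12.7 (SD, n = 4) in the same order of groups. Its highest value, 34.3 in KO ezetimibe replicate 2, stood apart from the other 3 libraries of that group at 7.01 to 10.7. The other type IV genes were lower. Col4a3 had group means of 1.90 to 6.69, and Col4a4, Col4a5 and Col4a6 were not expressed.

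The 2 genes run away from each other from starts that overlap by 22 bases, which is shown because both values rest on this one locus and the counting strand is not stated. On the plus strand of GRCm38, in the Col4a2 direction, chr8:11312805-11312826 reads as follows.
Col4a1 and Col4a2 start overlap: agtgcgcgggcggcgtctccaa
The exons of Col4a1 and Col4a2 span 7.46 and 6.62 kb.

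Type VI collagen is a trimer of the products of Col6a1, Col6a2 and a longer chain such as that of Col6a3. Col6a1 (ENSMUSG00000001119, chromosome 10, 76708792 to 76726168, minus strand) had 7.64, 46.3, 5.15 and 38.7 in WT control and 19.5, 21.7 and 34.7 in KO control. WT ezetimibe was even, at 9.50, 13.1, 12.3 and 11.1. KO ezetimibe had 6.43, 51.5, 8.17 and 11.7, with replicate 2 again far above the rest. Col6a2 ranged from 1.91 to 47.2 within WT control alone, and its group means were 21.7 ± 22.3 (SD, n = 4) in WT control, 19.9 ± 3.97 (SD, n = 3) in KO control, 9.90 ± 6.62 (SD, n = 4) in WT ezetimibe and 15.9 ± 12.3 (SD, n = 4) in KO ezetimibe. Col6a3 was lower, with means of 8.42 ± 6.45 (SD, n = 4), 9.87 ± 5.41 (SD, n = 3), 4.03 ± 1.97 (SD, n = 4) and 9.97 ± 8.79 (SD, n = 4) in that order. Col6a4, an alternative to that longer chain, had 15.3 ± 11.4 and 16.1 ± 6.08 in WT and KO control and 6.49 ± 2.72 and 7.25 ± 5.24 in WT and KO ezetimibe (SD, n = 4, 3, 4 and 4). Col6a5 and Col6a6 were not expressed.

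**Figure D2:**
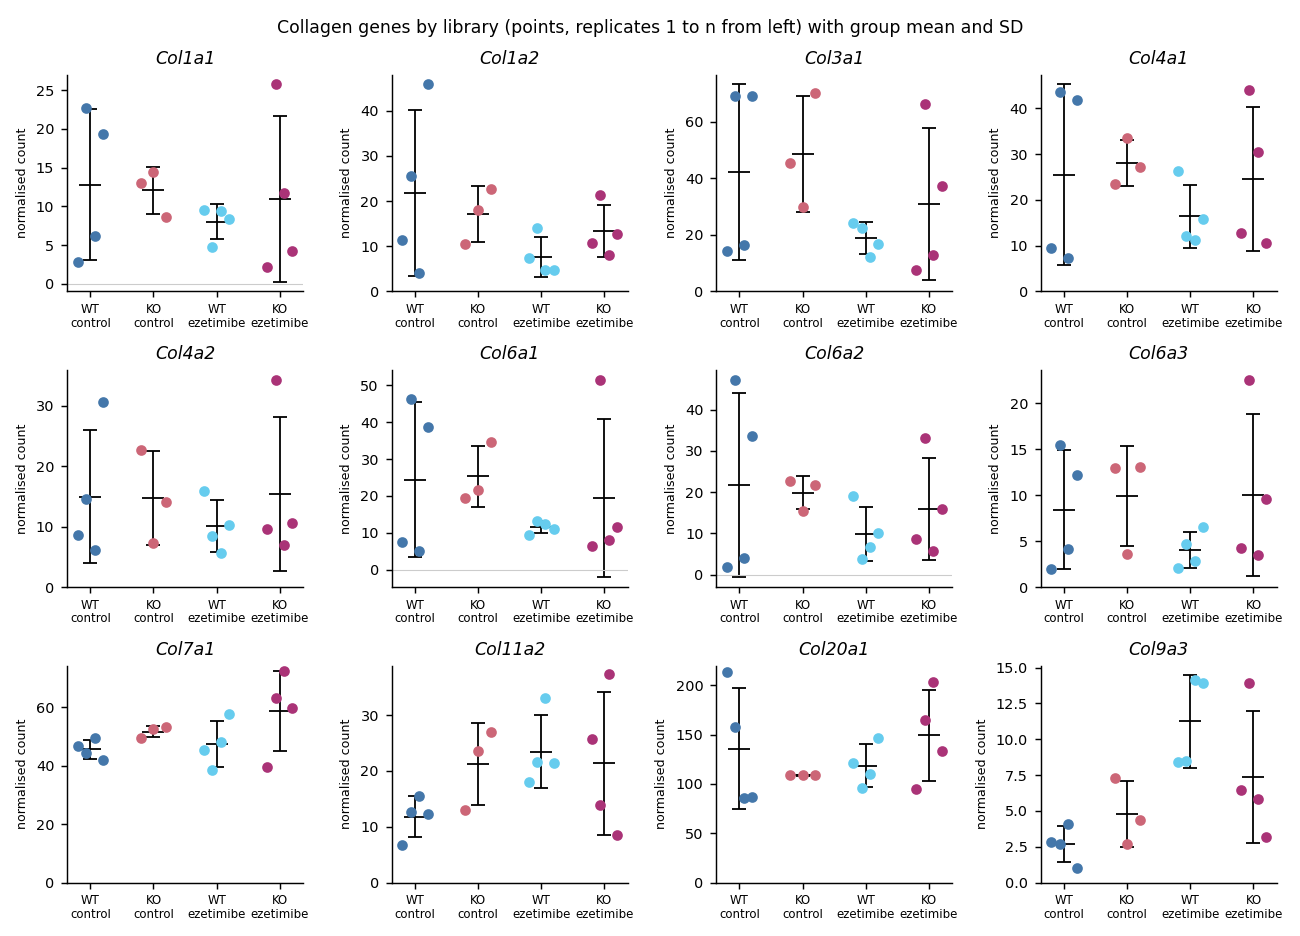
Normalised counts of 12 collagen genes by group, 1 point per library, with the group mean and SD in black (n = 4, 3, 4 and 4 from left). For the 8 stromal core genes WT control replicates 2 and 4 lie above replicates 1 and 3 and KO ezetimibe replicate 2 lies above the other 3 of its group, while Col7a1 varies least within groups.

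Col7a1, Col20a1 and Col11a2 had other profiles. Col7a1 was the steadiest collagen, with 46.8, 44.5, 49.5 and 41.8 in WT control, 49.5, 52.5 and 53.1 in KO control, 45.4, 38.5, 48.1 and 57.6 in WT ezetimibe and 39.6, 63.3, 72.4 and 59.6 in KO ezetimibe. The KO control libraries lay just above the WT control ones, with the nearest pair equal to 3 digits. Col20a1 had 213, 158, 85.5 and 86.6 in WT control, 109 in each of the 3 KO control libraries, 121, 95.8, 110 and 147 in WT ezetimibe and 95.3, 165, 203 and 133 in KO ezetimibe. Here WT control replicate 1, one of the 2 libraries lowest in the stromal core, was the highest of all. Col11a2, a fibril chain best known from cartilage (ENSMUSG00000024330, chromosome 17, 34039437 to 34066685, plus strand), had 6.68, 12.7, 15.5 and 12.2 in WT control, 13.0, 23.5 and 27.1 in KO control, 18.0, 21.6, 33.0 and 21.4 in WT ezetimibe and 25.7, 13.9, 37.4 and 8.52 in KO ezetimibe. All WT ezetimibe libraries were above all WT control libraries.

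The multiplexins Col15a1 and Col18a1, basement membrane proteoglycans, were moderate. Col18a1, the source of the fragment endostatin, had group means of 24.9 ± 9.45 and 28.3 ± 7.96 in WT and KO control and 15.4 ± 6.02 and 21.5 ± 6.37 in WT and KO ezetimibe (SD, n = 4, 3, 4 and 4). Col15a1 had 21.3 ± 5.26, 13.9 ± 2.24, 18.2 ± 4.42 and 21.4 ± 8.59 in WT control, KO control, WT ezetimibe and KO ezetimibe. The fibril-associated Col14a1 was at 0 in WT ezetimibe replicates 3 and 4, at 5.28 and 5.63 in the other 2, and between 3.82 and 18.3 in all other libraries. A count of 0 allows up to 3.69 reads (exact Poisson 95% interval, counting error only). Col9a3, a fibril-associated cartilage collagen (ENSMUSG00000027570, chromosome 2, 180597790 to 180622189, plus strand), had 2.86, 2.72, 4.12 and 1.02 in WT control and 8.45, 8.45, 14.1 and 13.9 in WT ezetimibe, with no overlap. These are few reads, with 4 in WT control replicate 3 and 8 in WT ezetimibe replicate 1. Their 95% Poisson intervals, 1.09 to 10.2 and 3.45 to 15.8 reads, overlap. It had 7.30, 2.71 and 4.33 in KO control and 6.43, 13.9, 5.84 and 3.20 in KO ezetimibe. The transmembrane Col25a1 had group means between 6.93 and 7.91.

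The first comparison asked whether loss of Aster-B and Aster-C changed collagen transcripts on the control diet, and 0 of 17 collagens passed limma at an adjusted p of 0.05 (background 0.371%, 53 of 14299 genes). Unadjusted p was under 0.05 for 0 collagens and for 14.7% of all genes. On the recovered reads edgeR and DESeq2 also called 0 of 17 (background 0.0839% and 3.17%). DESeq2 gave no adjusted p for Col1a1, Col4a2, Col6a3, Col6a4, Col9a3, Col14a1 and Col25a1, so it could not call them. No collagen is among the 424 genes of the authors' deposited table for this comparison. The smallest p belonged to Col11a2, with a log2 fold change of 0.79 ± 0.43 (SE, adjusted p = 0.418), followed by Col15a1 at −0.56 ± 0.31 (adjusted p = 0.436) and Col9a3 at 0.65 ± 0.48 (adjusted p = 0.573). Of the stromal core, Col3a1 differed by 0.47 with a 95% interval from −1.01 to 1.94, Col4a1 by 0.51 (−0.80 to 1.82), Col6a1 by 0.52 (−1.02 to 2.07) and Col6a2 by 0.72 (−1.13 to 2.57). These intervals used the residual degrees of freedom alone and are somewhat wider than limma's own test implies. For Col6a2 the interval spans 2-fold in both directions, and for Col3a1 and Col6a1 its lower end lies near 2-fold. Signs of 4 core genes differed between tools, with Col1a1 at 0.25 by limma but −0.089 by edgeR, Col1a2 at 0.051 but −0.37, Col4a2 at 0.081 but −0.023 and Col6a2 at 0.72 but −0.14. Libraries of KO and WT did not overlap for 1 of 17 collagens, Col7a1, against 12.2% of all genes. The median log2 fold change of the 17 by limma was 0.31, with 15 positive, against −0.0054 for all genes tested. By edgeR it was 0.036, with 10 positive, against −0.019 for all genes.

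On ezetimibe the same contrast of KO with WT again called 0 of 17 collagens (background 0.00699%, 1 of 14299 genes), with 0 by edgeR (0.00699%) and 0 by DESeq2 (0.587%). DESeq2 gave an adjusted p only for Col3a1, Col7a1 and Col20a1, so it could not call the other collagens. No collagen was among the 72 genes of the authors' deposited table. For 1 collagen the unadjusted p was below 0.05, as it was for 16.4% of all genes. It was Col14a1, at 1.87 ± 0.66 (log2, SE, adjusted p = 0.243), where 2 WT libraries were at 0. Its groups overlapped, as did those of all other tested collagens (0 of 17, against 9.93% of all genes). Col7a1 followed at 0.29 ± 0.19 (adjusted p = 0.421) and Col9a3 at −0.67 ± 0.44 (adjusted p = 0.426). KO ezetimibe replicate 2 decided the sign for several core genes. Without it Col6a1 went from 0.23 to −0.38, Col3a1 from 0.28 to −0.23 and Col4a2 from 0.39 to −0.066. The median of the 17 was 0.28 by limma, against −0.0018 for all genes, and 0.47 by edgeR, against −0.011.

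Ezetimibe against the control diet in WT asked whether blocking cholesterol uptake changed collagen transcripts. There 0 of 17 passed limma (background 0.217%, 31 of 14299 genes), edgeR (0.238%) or DESeq2 (0.65%). DESeq2 gave no adjusted p for Col1a1, Col6a3, Col6a4, Col9a3, Col14a1 and Col25a1, so it could not call them. Its unadjusted p for Col9a3 was 0.0013. By limma, unadjusted p was under 0.05 for Col9a3, Col14a1 and Col11a2 (3 of 17 collagens, 5.08% of all genes). Col9a3 differed by 1.77 ± 0.44 (log2, SE, adjusted p = 0.219), higher in all 4 ezetimibe libraries than in any control library. Col11a2 differed by 0.96 ± 0.40 (adjusted p = 0.879), also without overlap, and Col14a1 by −1.81 ± 0.66 (adjusted p = 0.698). Groups without overlap were thus 2 of 17 collagens, against 3.47% of all genes. Col9a3 reached 10 only in libraries of the ezetimibe diet, and Col14a1 in no WT ezetimibe library. Both genes therefore passed the filter through groups where they were high, and these counts are not a result about the collagens. All 8 core genes had negative fold changes, from −0.29 for Col4a1 to −1.07 for Col1a2, with adjusted p = 0.999 for each. The sign of 4 of them turned without 1 WT control library. Without replicate 2, Col1a1 went to 0.080, Col4a1 to 0.096 and Col6a2 to 0.24, and without replicate 4 they went to 0.0073, 0.076 and 0.083 and Col4a2 to 0.030. The median of the 17 was −0.38 by limma, against −0.0096 for all genes, and −0.68 by edgeR, against −0.018.

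In KO, ezetimibe against the control diet called 0 of 17 collagens (background 0.727%, 104 of 14299 genes), with 0 by edgeR (0.678%) and DESeq2 (7.99%). DESeq2 gave an adjusted p only for Col3a1, Col4a1, Col7a1, Col18a1 and Col20a1, so it could not call the other collagens. By limma, unadjusted p was below 0.05 for 0 collagens and for 22.9% of all genes. The smallest p was that of Col6a4, at −1.29 ± 0.65 (log2, SE, adjusted p = 0.245), then Col15a1 at 0.52 ± 0.31 (adjusted p = 0.334) and Col3a1 at −0.99 ± 0.67 (adjusted p = 0.388). No collagen had groups without overlap, against 18% of all genes. The median of the 17 was −0.36 by limma, with 4 positive, against 0.0056 for all genes. By edgeR it was −0.16, with 8 positive, against 0.0012. Each pair of comparisons that meets in one group shares its libraries, so the 4 sets of fold changes are not independent. The interaction, which asks whether the ezetimibe difference depends on genotype, called 0 of 17 collagens and 0 of all genes (background 0%). Unadjusted p was below 0.05 for 0 collagens and for 7.02% of all genes. DESeq2 called 5 genes (0.035%) and edgeR 0, none of them collagens. Col9a3 had the smallest p, at −1.32 ± 0.65 (adjusted p = 0.681), then Col11a2 at −1.08 ± 0.59 (adjusted p = 0.696) and Col15a1 at 0.72 ± 0.43 (adjusted p = 0.705). The median of the 17 was −0.11 by limma but 0.53 by edgeR, against 0.0075 and 0.012 for all genes.

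**Figure D3:**
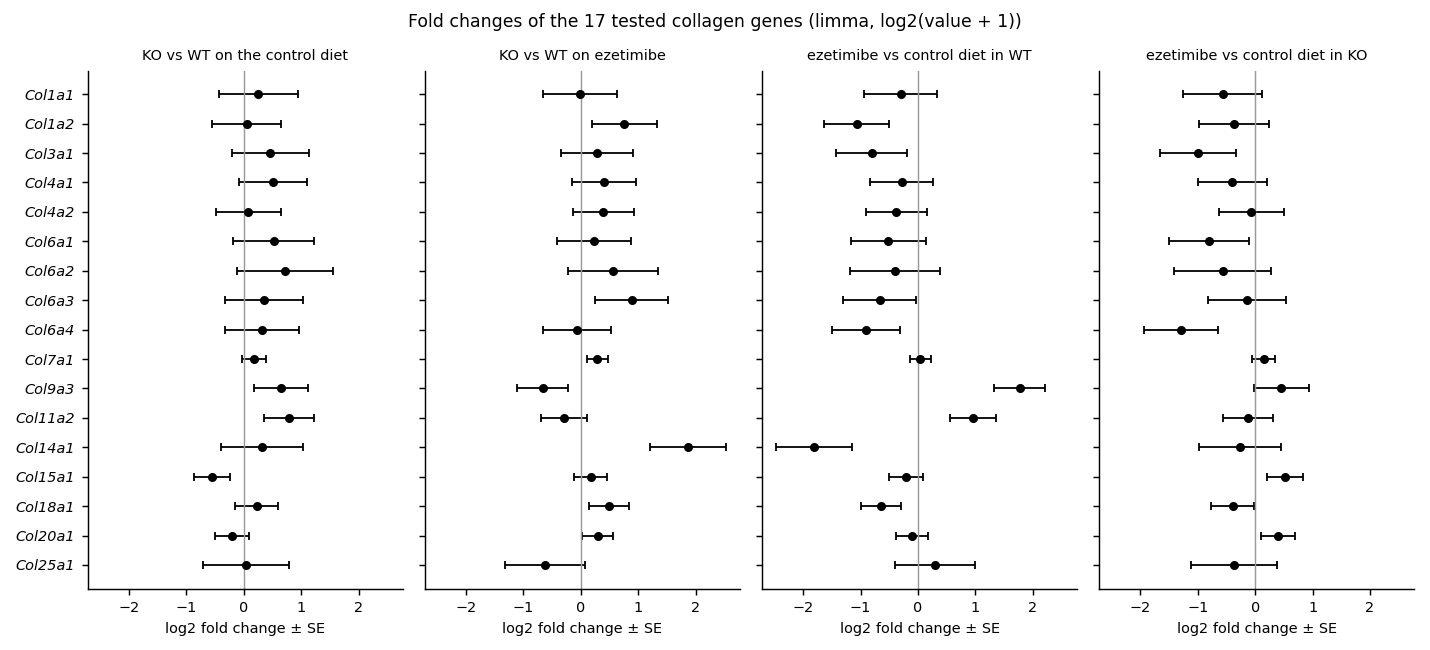
Log2 fold changes (points) with their standard errors (bars) of the 17 tested collagens in the 4 comparisons, from limma on log2(value + 1) with 15 libraries. Most bars span 0, and Col9a3 in WT on ezetimibe (1.77) and Col14a1 (1.87 and −1.81) lie farthest from it.

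Collagens spread widely within groups. The median within-group SD of log2(value + 1) was 0.884 for the 17 collagens, 0.484 for the 4562 genes with a mean of 5 to 60 and 0.258 for all 14299. Among collagens it ran from 0.235 for Col7a1 to 1.27 for Col6a2.

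Across the 15 libraries levels of the stromal core varied together. Over its 28 pairs Pearson's r of log2(value + 1) ran from 0.43 to 0.90 with a median of 0.75, highest for Col3a1 with Col6a1. Partners in one trimer were among them. Col6a1 and Col6a2 had r = 0.82 and Spearman's rho = 0.76 (permutation p = 0.0003, adjusted p = 0.0129 over 101 relations for r), and r was 0.73 without the 2 libraries farthest from the median of Col6a1. Col6a1 and Col6a3 had r = 0.81 (permutation, adjusted p = 0.0129), Col1a1 and Col4a1 0.85 (adjusted p = 0.0111), Col1a2 and Col3a1 0.76 (adjusted p = 0.0156) and Col4a1 and Col4a2 0.66 (adjusted p = 0.0427, with rho at an adjusted p of 0.110). Without the 2 libraries farthest from the median of the first gene named in each pair, r was 0.68, 0.87, 0.73 and 0.60 for these 4 pairs. The type I partners Col1a1 and Col1a2 had the lowest value of the core, 0.43. Col18a1 had r of 0.44 to 0.81 with the core. Col7a1, Col11a2 and Col20a1 did not follow it, with r between −0.39 and 0.29 over 24 pairs and a median of −0.02. Nor did Col9a3 (−0.59 to −0.03) or Col25a1 (−0.14 to 0.31), and Col15a1 had 0.11 to 0.48 with the core. Col20a1 had r = 0.58 with Col7a1 but −0.20 with Col11a2, so the genes outside the core were not one set. All these counts share libraries, depth and size factors, so these are relations between libraries and not between cells.

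**Figure D4:**
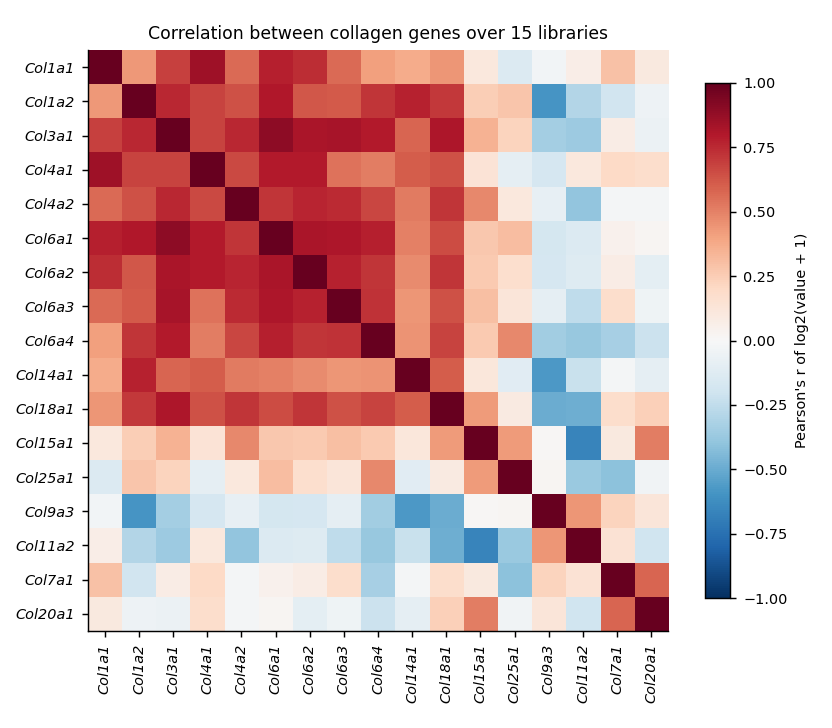
Pearson's r of log2(value + 1) between the 17 tested collagens over 15 libraries, red for positive and blue for negative. The block of the 8 core genes with Col6a4, Col14a1 and Col18a1 is red, and Col25a1, Col9a3, Col11a2, Col7a1 and Col20a1 stand outside it. Col15a1 is positive with the core but mostly pale (0.11 to 0.48).

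The genes most like Col1a1 after group means were removed were Col4a1 (r = 0.86), Cmtm3 (0.85), Lrch1 (0.85), the endoplasmic reticulum prolyl isomerase Fkbp9 (0.83) and the complement protease C1s1 (0.82), over 15 libraries and 14299 genes. Serpinh1, the collagen chaperone, was in place 10 at 0.78.

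Relations to cell type markers were computed for Col1a1, Col4a1 and Col6a1 of the core. Of these 36 relations, 7 passed by r at an adjusted p of 0.05 and 4 by rho, and 5 of the 7 were those of Col6a1. The 6 endothelial markers summed to between 39.1 and 123 in WT control, 50.9 and 77.9 in KO control, 38.1 and 65.5 in WT ezetimibe and 33.9 and 97.6 in KO ezetimibe. Their mean log2 level had r = 0.72 with Col1a1, 0.75 with Col4a1 and 0.79 with Col6a1 (permutation, adjusted p = 0.0191, 0.0170 and 0.0141), with rho of 0.64, 0.66 and 0.69 (permutation, adjusted p = 0.0674, 0.0554 and 0.0452). Without WT control replicate 2 and KO ezetimibe replicate 2, the 2 libraries farthest from the median, r was 0.53, 0.63 and 0.62. The 12 fibroblast markers summed to between 161 and 414, 266 and 337, 151 and 231, and 134 and 315 in the same order of groups. Col6a1 had r = 0.72 with them (permutation, adjusted p = 0.0189, rho = 0.77), 0.72 with smooth muscle markers (adjusted p = 0.0191, rho = 0.64) and 0.71 with lymphatic endothelial markers (adjusted p = 0.0215, rho = 0.70). Without the 2 libraries farthest from each list's median, these 3 were 0.69, 0.79 and 0.54. With pericyte markers Col6a1 had r = 0.65 (permutation, adjusted p = 0.0410, rho = 0.60). Col1a1 and Col4a1 did not pass with the fibroblast list (r = 0.47 and 0.59, permutation, adjusted p = 0.237 and 0.0907), the smooth muscle list (adjusted p = 0.209 and 0.143) or the lymphatic endothelial list (adjusted p = 0.129 and 0.184). Col4a1 with the adipocyte list had r = 0.65 (permutation, adjusted p = 0.0513) and rho = 0.69 (adjusted p = 0.0452). The permutations took no account of the 4 groups. After group means were removed, Col6a1 had r = 0.81 with endothelial, 0.71 with fibroblast and 0.60 with pericyte markers. It then also had 0.60 with dividing-cell, 0.54 with leukocyte and −0.59 with epithelial markers. Col4a1 had 0.78 with endothelial, 0.62 with fibroblast and 0.64 with dividing-cell markers. Within groups the relations were thus not limited to stromal lists. The highest values of these lists come from genes that other gut cells also express, such as Mylk at 4227, so the mean log2 level was used. In bulk tissue, fewer stromal cells and less collagen RNA per stromal cell cannot be told apart, and the part of the markers in the group differences was not tested.

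Col7a1 went another way. In relations chosen after its values were seen, it had r = 0.72 with the epithelial list (permutation, adjusted p = 0.0189), but rho was 0.59 (adjusted p = 0.104) and r fell to 0.43 without KO ezetimibe replicates 3 and 4. With the leukocyte list it had r = −0.65 and rho = −0.68 (permutation, adjusted p = 0.0461 and 0.0492), and r was −0.34 without the same 2 libraries, so both relations rest on them. Neither Col20a1 nor Col11a2 had a relation to any of the 12 lists with an adjusted p under 0.05.

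**Figure D5:**
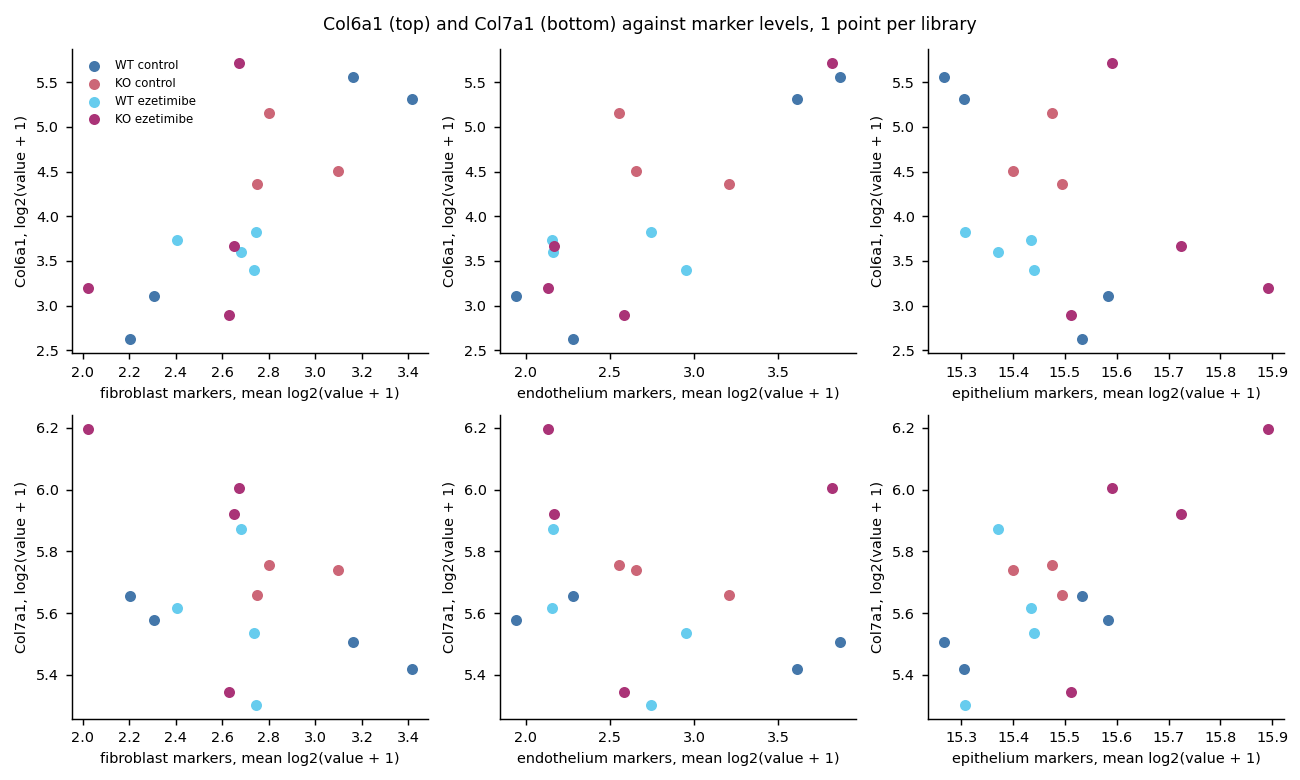
Col6a1 (top) and Col7a1 (bottom), as log2(value + 1), against the mean log2(value + 1) of the fibroblast, endothelial and epithelial markers, 1 point per library coloured by group. Col6a1 rises with the fibroblast and endothelial lists (r = 0.72 and 0.79) and Col7a1 with the epithelial list (r = 0.72).

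Neighbouring genes bear on 3 of the collagens outside the core, since reads that run past the end of an upstream gene on the same strand, or reads of an overlapping gene, would be counted with them. Col20a1 shares exon sequence with the sense-overlapping transcript BX649560.1 (ENSMUSG00000070461), which had a mean of 86.9, and their r was 0.30 (permutation, adjusted p = 0.462). Arfgap1, which ends 4009 bases upstream, had 858 and r = 0.32. Col11a2 starts 1038 bases after Rxrb, a nuclear receptor gene with a mean of 336, and the 2 had r = 0.65 (permutation, adjusted p = 0.0378) and rho = 0.81 (adjusted p = 0.0263), with r at 0.81 without the 2 farthest libraries. On ezetimibe in WT, where Col11a2 differed by 0.96, Rxrb differed by 0.15 ± 0.14 (log2, SE, limma adjusted p = 0.999). In KO against WT control, where Col11a2 differed by 0.79, Rxrb differed by 0.19 ± 0.16 (adjusted p = 0.625). Col9a3 starts 1954 bases after Ogfr, which had 1067. Ogfr was higher on ezetimibe in WT by 0.66 ± 0.11 (log2, SE, limma adjusted p = 0.0145), in the comparison where Col9a3 differed by 1.77. Over all libraries Col9a3 and Ogfr had r = 0.76 (permutation, adjusted p = 0.0177), 0.69 without the 2 farthest libraries and 0.20 after group means were removed. Whether reads of Rxrb or Ogfr were counted for these collagens was not tested. Col7a1 starts 3963 bases after Uqcrc1, which had 5604, and their r was −0.02.

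Promoter windows from the RefSeq table for GRCm38.p6 were found for 33 of the 42 collagens and 14 of the 17 tested, with none for Col1a1. The windows of 250 bases before the start are shown for 2 core genes that moved together, Col3a1 and Col6a3 (r = 0.82), and for 2 collagens outside the core, Col7a1 and Col20a1. Capitals mark matches on either strand to the TATA motif TATAAA, the CCAAT box (spelled CCAAT) and the Sp1-type GC box GGGCGG, and each window is printed 5′ to 3′ in the direction of its gene.
Col3a1 (chr1:45311288-45311537, plus strand): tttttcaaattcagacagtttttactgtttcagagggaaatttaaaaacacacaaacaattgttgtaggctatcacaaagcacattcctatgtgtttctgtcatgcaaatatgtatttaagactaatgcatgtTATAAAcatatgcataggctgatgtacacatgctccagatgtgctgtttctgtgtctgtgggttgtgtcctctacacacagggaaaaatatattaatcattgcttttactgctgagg
Col6a3 (chr1:90843972-90844221, minus strand): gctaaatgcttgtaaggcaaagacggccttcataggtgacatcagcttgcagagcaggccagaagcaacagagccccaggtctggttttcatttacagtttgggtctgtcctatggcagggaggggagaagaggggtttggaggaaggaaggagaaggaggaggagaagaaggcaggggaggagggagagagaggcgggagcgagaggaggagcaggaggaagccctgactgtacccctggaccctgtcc
Col7a1 (chr9:108953336-108953585, plus strand): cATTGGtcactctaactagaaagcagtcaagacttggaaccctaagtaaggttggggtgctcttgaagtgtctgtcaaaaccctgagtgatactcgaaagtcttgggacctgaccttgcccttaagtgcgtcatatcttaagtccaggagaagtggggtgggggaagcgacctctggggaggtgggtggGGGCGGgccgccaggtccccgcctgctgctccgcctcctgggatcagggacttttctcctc
Col20a1 (chr2:180986285-180986534, plus strand): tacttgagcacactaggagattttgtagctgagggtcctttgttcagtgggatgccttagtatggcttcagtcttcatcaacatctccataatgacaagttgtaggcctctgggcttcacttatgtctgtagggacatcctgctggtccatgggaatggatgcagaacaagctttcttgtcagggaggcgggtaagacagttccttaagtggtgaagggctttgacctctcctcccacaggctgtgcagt
Col3a1 holds TATAAA at −117 from the start. Col7a1 holds GGGCGG at −61 and CCAAT on the other strand, read as ATTGG, at −249. Col6a3 and Col20a1 hold none of the 3 motifs in these windows. The Col20a1 window also holds part of an exon of BX649560.1 on the same strand in GENCODE M21. Among 32851 windows of this length, 12.4% hold TATAAA, 33.8% CCAAT and 32.7% GGGCGG.

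Of the enzymes and chaperones that build collagen, 13 of 19 genes were tested and 0 passed limma in any of the 5 contrasts, where at most 0.727% of all genes did. The chaperone complex member Crtap had the smallest p in KO against WT control (−0.98 ± 0.36, adjusted p = 0.212) and for ezetimibe in WT (−0.96 ± 0.33, adjusted p = 0.654), and the prolyl hydroxylase subunit P4ha1 for KO against WT on ezetimibe (0.81 ± 0.25, adjusted p = 0.223). For ezetimibe against control in KO it was Colgalt1, a collagen galactosyltransferase, at −0.35 ± 0.10 (adjusted p = 0.0801), which DESeq2 called (adjusted p = 0.0313, background 7.99%). Among procollagen proteinases and cross-linkers only 2 of 12 were tested, Bmp1 and Pcolce, and neither passed. The lysyl oxidases Lox, Loxl1, Loxl2, Loxl3 and Loxl4 had means of 0.724 to 5.08.

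Of the collagen receptors, 7 of 10 were tested and 0 passed limma. The integrin chains Itga1 and Itga2 had log2 fold changes of −0.50 ± 0.14 and −0.56 ± 0.15 in KO against WT control (adjusted p = 0.115 and 0.109). The authors' deposited table lists them as lower, at −0.51 and −0.55 (adjusted p = 0.0378 and 0.0358), and DESeq2 on the recovered reads called both (adjusted p = 0.0341 and 0.0320, background 3.17%). For ezetimibe in KO, Itga1 was at 0.54 ± 0.14 (adjusted p = 0.0611), and DESeq2 called it (adjusted p = 0.0151, background 7.99%). In that contrast limma called 1 of 5 tested leukocyte markers higher (adjusted p = 0.0271, background 0.727%), with 3 positive and 2 negative. edgeR and DESeq2 each called 1 as well. The summed leukocyte list lay between 1047 and 1324 in KO ezetimibe, against 696 to 899 in KO control. In KO against WT on the control diet, limma called 1 of 5 tested leukocyte markers lower (Ptprc, at −0.69 ± 0.12, adjusted p = 0.0309). It also called 3 of 6 dividing-cell markers lower, among them Mki67 at −1.50 ± 0.29 (adjusted p = 0.0470), with a background of 0.371%. Of the 6 dividing-cell markers edgeR called 0 and DESeq2 called all 6, and both called Ptprc. The summed leukocyte list lay between 1166 and 1360 in WT control and between 696 and 899 in KO control, and the dividing-cell list between 1062 and 2722 and between 398 and 863. Their part in the integrin values was not tested. Among 10 collagen-degrading proteases and inhibitors, 8 were tested and 0 passed. The gelatinases Mmp2 and Mmp9 came closest, in KO on ezetimibe against control, at −2.56 ± 0.65 (adjusted p = 0.0574) and −1.65 ± 0.40 (adjusted p = 0.0553), at means over all libraries of 10.3 and 17.3. Fap, a fibroblast surface protease, was at 1.61 ± 0.44 in the same contrast (adjusted p = 0.0645), and DESeq2 called it (adjusted p = 0.0141). Mmp9 was also at −1.27 ± 0.37 in WT (adjusted p = 0.380).

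Other matrix proteins (11 of 20 tested) and the TGF-beta pathway (10 of 15 tested) had 0 genes past limma in each contrast, where at most 0.727% of all genes passed. Nid1, a basement membrane linker of laminin and type IV collagen, was at −1.16 ± 0.40 on ezetimibe in WT (adjusted p = 0.630), and Fbln1, a matrix protein with a mean of 3249, at 0.49 ± 0.17 in KO against WT on ezetimibe (adjusted p = 0.243). Smad7, the inhibitory Smad, was at 0.54 ± 0.16 in KO against WT on ezetimibe (adjusted p = 0.223) and at 0.53 ± 0.17 for ezetimibe in KO (adjusted p = 0.0956), where DESeq2 called it (adjusted p = 0.0387, background 7.99%). Ccn2, a common TGF-beta target, had a mean of 0.768 and was not tested.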

How the data were processed

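Per the labels' protocols, RNA came from TRIzol and libraries from the NEBNext Ultra II kit. The submitters' processing notes name FastQC, STAR 2.6.0c, mm10 and DESeq2. The read counter, its annotation and its strand setting were not given in the sources used. The deposited table holds DESeq2-normalised counts (a signal), per the file headers, and whole reads were recovered, since 100% of values were whole multiples within 0.01 of what 1 read is worth. In their 2 tables of comparisons the authors deposited a log2 fold change, a fold change (ratio), a Wald score, and a p-value with its adjusted p-value, per the file headers.

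Groups came from the labels. Whether each library is 1 mouse is not stated, and p-values then reflect only the spread of these libraries, which may be technical. No 2 libraries of a group agreed within sampling noise. Differences were tested in limma 3.58.1 (trended variance, log2(value + 1), all 15 libraries), Benjamini-Hochberg adjusted over 14299 genes, which understates changes of low genes. edgeR 4.0.16 and DESeq2 1.42.0 (R 4.3.3) ran on the recovered reads as alternatives. Levels per kb use union exon length from GENCODE M21, which matched 26825 of 26844 identifiers. Correlations used 100000 permutations, adjusted over 101 relations, of which 36 were chosen after values were seen. Scripts were tested on simulated data. Alternatives were pseudocounts of 0.5 and 5, no filter, a mean of at least 50, TMM, only the groups compared, a replicate block and each library left out.

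The members and gene lists were chosen with earlier results of these data known. The text names the 8 core genes, the 3 collagens of smallest p in each comparison, up to 2 genes of each pathway list with the smallest p, and the 5 genes most like Col1a1. Other genes were named after their values were seen.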

Additional observations from a re-analysis of the deposited data

Results flagged for a closer look

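Of 51 groups of 4 libraries tested for a value far from the rest, 2 were singled out, where chance gives about 1 in 20. Both came from KO ezetimibe replicate 2. There Col4a2 had 34.3 normalised counts, against 7.01 to 10.7 in the other 3 libraries of the group, and Col6a1 had 51.5, against 6.43 to 11.7. The summed endothelial markers of that library, 97.6, were also the highest of its group. Their part in these values was not tested.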

How the results depend on the processing

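No collagen was called in any comparison under any of the 94 settings and comparisons run, the main ones included. Not every run could call each collagen. With a mean of at least 50 only Col7a1 and Col20a1 were tested. In each comparison of 2 groups DESeq2 gave no adjusted p for some collagens. Over all genes, the count for the genotype on the control diet (53) was 17 with a pseudocount of 5, 12 without a filter, 3 with only the 2 groups, 231 with a replicate block, 12 by edgeR and 453 by DESeq2. For KO against WT on ezetimibe (1) it was 3 with only the 2 groups, 6 with the block and 84 by DESeq2. For ezetimibe in WT (31) it was 54 with the block and 93 by DESeq2. For ezetimibe in KO (104) it was 54 without a filter, 330 with a mean of at least 50, 14 with only the 2 groups, 1915 with the block and 1142 by DESeq2. The interaction (0) became 5 by DESeq2. With each library left out in turn, these counts ranged from 3 to 126, 1 to 1, 17 to 34, 5 to 456 and 0 to 1. The labels do not say what a shared replicate number means. Same-numbered libraries had a median r of 0.125 between deviations from group means (−0.242 to 0.331) and differently numbered ones −0.0253, and 8 of 15 libraries correlated best with their own number, so whether the numbers pair libraries is not settled. The block called no collagen.

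Signs of core genes turned for the genotype on the control diet. Col1a2 was −0.029 with a pseudocount of 5. With edgeR, Col1a1 was −0.089, Col1a2 −0.37, Col4a2 −0.023 and Col6a2 −0.14, and with DESeq2 −0.083, −0.35, −0.021 and −0.13. On ezetimibe Col1a1 was 0.081 with a pseudocount of 5, 0.44 with edgeR and 0.45 with DESeq2. For ezetimibe in KO, Col4a2 was 0.056 and Col6a3 0.021 with edgeR, and 0.067 and 0.022 with DESeq2. With libraries left out in turn, values ran as follows. For the genotype on the control diet, Col1a1 ranged from −0.24 to 0.63, Col1a2 from −0.52 to 0.55, Col4a2 from −0.28 to 0.49 and Col6a3 from −0.10 to 0.89. For KO against WT on ezetimibe, Col1a1 ranged from −0.56 to 0.47, Col3a1 from −0.23 to 0.77, Col4a2 from −0.066 to 0.65 and Col6a1 from −0.38 to 0.56. For ezetimibe in WT, Col1a1 ranged from −0.79 to 0.080, Col4a1 from −0.72 to 0.096, Col6a2 from −1.11 to 0.24 and Col4a2 from −0.68 to 0.030. For ezetimibe in KO, Col4a2 ranged from −0.52 to 0.30 and Col6a3 from −0.67 to 0.18. The cause was not tested. At 276 to 758 collagen reads per library, counting error alone is large for each gene.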
